A study of Mus musculus with 8 samples.

Results

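The Notch genes examined here were 10 of the 23361 genes in the expression table, taken by gene symbol. They were the receptors Notch1, Notch2 and Notch3, the ligands Dll1, Dll3, Dll4 and Jag1, and the basic helix-loop-helix proteins Hes1, Hes6 and Hey1. RNA sequencing was carried out on bulk tissue of the mouse gastric squamous-columnar junction (SCJ), where the squamous lining of the forestomach meets the glandular stomach. The 5 Cancer samples were SCJ tumors labelled Trp53-/-Rb1-/-, from Lgr5-eGFP-IRES-CreERT2 mice with loxP-flanked Trp53 and Rb1 and the Ai9 tdTomato reporter, induced with tamoxifen and taken late in the disease. The 3 Control tissue samples were SCJ of wild type mice of matched age, and whether they received tamoxifen was not given in the sources used here. Cre was made from the Lgr5 locus, so both genes were deleted only in Lgr5+ cells and their progeny, while the tumor tissue also held vessels, stroma, blood cells and remaining normal stomach. Strain and sex per sample were not used here.

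Notch signalling passes between touching cells. A Delta or Jagged ligand on 1 cell binds a Notch receptor on its neighbour, proteases then cut the receptor, and the freed intracellular piece joins the DNA-binding protein Rbpj and the Mastermind coactivators in the nucleus to switch on repressors of the Hes and Hey families. Hes1 in turn represses proneural genes, and by this route active Notch keeps epithelial progenitors of the gut from becoming endocrine cells. In blood vessels the same pathway works through Dll4, Notch1 and Hey1, and in the smooth muscle and pericytes of vessel walls through Notch3.

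To show control regions of ligands and an effector that were called, the 250 bases before a RefSeq start site (build GRCm38.p6) were read for Dll4 (chr2:119325534-119325783, plus strand), Jag1 (chr2:137116521-137116770, minus strand) and Hes6 (chr1:91413223-91413472, minus strand), each written 5′ to 3′ on the strand of its gene. Capitals mark CACGCG, the site that Hes and Hey repressors can bind, on either strand.
Dll4: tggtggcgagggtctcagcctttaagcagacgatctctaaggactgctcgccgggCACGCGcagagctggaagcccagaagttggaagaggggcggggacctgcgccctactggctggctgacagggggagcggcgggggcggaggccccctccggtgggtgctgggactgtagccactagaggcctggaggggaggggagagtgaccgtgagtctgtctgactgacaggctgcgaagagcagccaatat
Jag1: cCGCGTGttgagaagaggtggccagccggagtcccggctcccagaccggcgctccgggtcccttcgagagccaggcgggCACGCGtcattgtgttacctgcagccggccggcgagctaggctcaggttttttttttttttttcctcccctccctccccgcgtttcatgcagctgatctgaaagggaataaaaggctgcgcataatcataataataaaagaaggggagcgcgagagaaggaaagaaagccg
Hes6: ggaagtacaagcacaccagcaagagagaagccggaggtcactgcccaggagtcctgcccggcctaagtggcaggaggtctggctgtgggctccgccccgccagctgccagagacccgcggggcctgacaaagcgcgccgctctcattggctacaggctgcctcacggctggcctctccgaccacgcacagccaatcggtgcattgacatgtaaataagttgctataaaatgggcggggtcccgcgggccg
The Dll4 window held this motif once, 195 bases before the start site, and the Jag1 window 2 times, 249 and 171 bases before it. Hes6 has 2 windows, of which the one before the start of the transcript in the table is shown, and neither held a match. The window of Notch1, which was also called and is not printed, held none. Of the 10 members, 8 had windows in the RefSeq promoter table (10 windows in all), and Hes1 and Hey1 had none. CACGCG was found in 4 of these 10 windows, those of Notch2, Dll4 and Jag1 and 1 of the 2 of Dll1, and in 7.62% of all 32851 windows of the same length. The core of the Rbpj site, TGGGAA, was in 21.6% of all windows and in none of the members' windows, and the E-box CACGTG was in 6.02% of all windows and in no member's. Of the E2F sites, TTTCCCGC was in 0.895% of all windows and in that of Notch2, and TTTGGCGC was in 0.417% and in no member's. Both strands were searched for each of these 5 motifs, and in the members' windows no match overlapped that of another motif. The members' windows held 52% to 72% G and C, and the shares over all windows were not matched for this content. A match here describes the letters only.

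Values are FPKM (sequenced fragments scaled to transcript length and library size), deposited as whole numbers, so that a level of 1 or 2 carries few steps. FPKM summed to between 403569 and 573858 in the cancers and to between 887141 and 992550 in the controls, and the 10 most abundant genes took 11.1% to 19.6% and 39.3% to 44.3% of these sums. Bringing all libraries to an equal FPKM sum (TPM) moved the median over the tested genes, as a log2 fold change, from -0.04 to 0.81, and changes are therefore given on both scales where the scale matters. Of the deleted genes, Rb1 was at 4 to 6 FPKM in the cancers and 9 to 10 in the controls (log2 fold change -0.90, limma, adjusted p = 0.0059), but did not differ past the threshold on the TPM scale (-0.05, adjusted p = 0.84). Trp53 was at 12 to 30 and 16 to 19 FPKM, with overlap (-0.08, adjusted p = 0.87), and was called higher in the cancers on the TPM scale (0.86, adjusted p = 0.020). Neuroendocrine markers summed to between 8224 and 18423 FPKM in the cancers and between 128 and 192 in the controls. Gastric glandular markers summed to between 156314 and 237038 in the controls and squamous markers to between 1560 and 2603, as the SCJ label implies. Cancer 1 stood apart in holding 0 FPKM of squamous markers, 692 of glandular markers and the most leukocyte marker FPKM (144), and Cancer 5 held the most hepatocyte marker FPKM (588, against 1 to 60 in the other cancers). Pgc, a pepsinogen, was listed at 28832 in control 1 and at 0 in controls 2 and 3, so a listed 0 in these values is not proof of absence.

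Among the 10 members, 3 were higher and 2 lower in the cancers past an adjusted p of 0.05 in limma with Benjamini-Hochberg adjustment. Dll4, Hey1 and Hes6 rose on the FPKM and TPM scales. Jag1 and Notch1 fell on the FPKM scale, with no call on the TPM scale, where the sign of Notch1 turned. With quantile normalization the same 5 members were called in the same directions. The other 4 members tested, Notch2, Notch3, Dll1 and Hes1, did not pass the threshold on the FPKM scale, and of these Dll1 was called higher on the TPM scale, where 50.0% of all genes were higher. Dll3 was listed at 0 in all 8 samples. The 5 calls were 55.6% of the 9 members tested, beside 34.5% of all 14357 genes tested. In the same fit 16.2% of all genes were called higher and 18.3% lower. The same 5 members were those whose groups did not overlap, 3 higher and 2 lower, beside 14.4% of all genes not overlapping and higher and 19.8% not overlapping and lower. Over the 9 members the median log2 fold change was -0.20 and -0.04 over all genes. In bulk tissue, fewer cells of a type and less RNA per cell cannot be told apart.

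**Figure D1:**
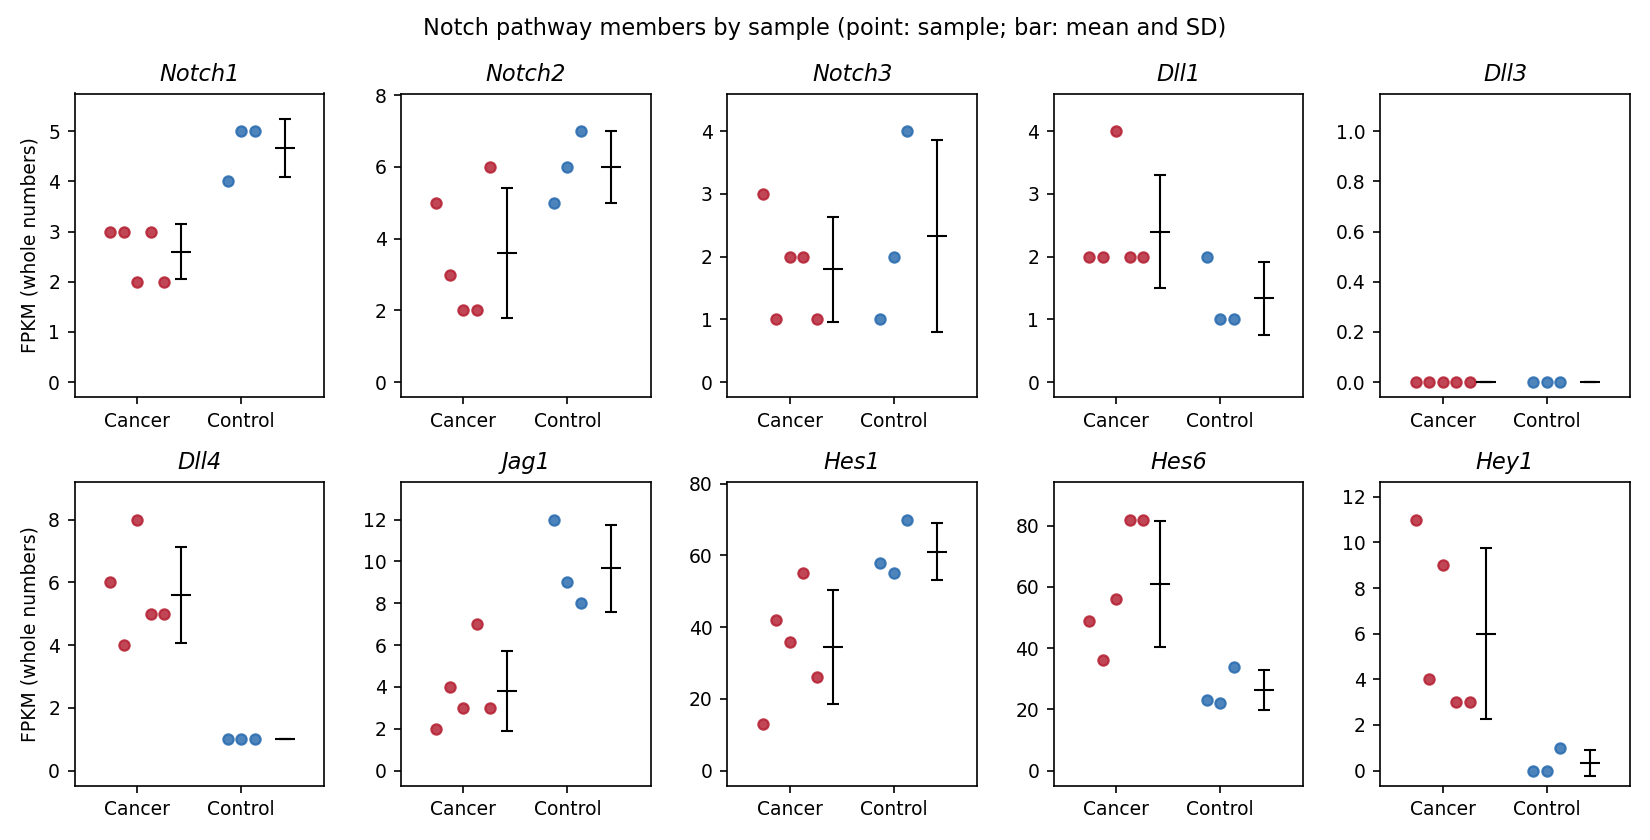
FPKM of each of the 10 members in each of the 5 Cancer (red) and 3 Control tissue (blue) samples, on a linear scale of its own per gene, with points for samples and black bars for the mean and SD of each group. Dll4, Hey1 and Hes6 lie higher and Notch1 and Jag1 lower in every cancer than in any control, Hes1 meets the controls at 55, and Dll3 is at 0 throughout.

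The receptors were present at low levels in both groups. Notch1 (chromosome 2, 26457902 to 26503822, mm10), the receptor known from endothelium and gut progenitors, was at 3, 3, 2, 3 and 2 FPKM in cancers 1 to 5 and at 4, 5 and 5 in controls 1 to 3. Every cancer was below every control, by 1 to 3 FPKM. Its mean was 2.6 ± 0.55 FPKM (SD, n = 5) in the cancers and 4.67 ± 0.58 (SD, n = 3) in the controls, a log2 fold change of -0.66 with a standard error of 0.17 (limma, adjusted p = 0.022). This call depended on the scale and on single libraries: the log2 fold change was 0.097 on the TPM scale (adjusted p = 0.74), and the adjusted p was 0.083 without control 2 and 0.074 without control 3. With quantile normalization the log2 fold change was -0.88 (limma, adjusted p = 0.0195). On the FPKM and TPM scales Notch1 lay below the median of all genes. If every value had been rounded against the difference, the log2 fold change would still have been -0.34.

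Notch2, the receptor with the highest mean in both groups, was at 5, 3, 2, 2 and 6 FPKM in the cancers and at 5, 6 and 7 in the controls. Cancers 1 and 5 reached the range of the controls while cancers 2, 3 and 4 lay below it. The log2 fold change of -0.68 ± 0.32 (SE) did not pass the threshold (limma, adjusted p = 0.13), and it was 0.11 on the TPM scale.

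Notch3, the receptor of vessel wall cells, was at 3, 1, 2, 2 and 1 FPKM in the cancers and at 1, 2 and 4 in the controls. The controls spanned more than the cancers did, so the groups overlapped throughout. Its log2 fold change was -0.20 ± 0.35 (SE; limma, adjusted p = 0.67), changed sign to 0.14 without control 3 and to 0.49 on the TPM scale, and lay within what rounding alone could move. Notch4, the endothelial receptor outside the members, was at 2, 2, 1, 1 and 1 FPKM in the cancers and at 3, 1 and 1 in the controls, also without separation.

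Since FPKM is per length and a share within a library does not change when the library is rescaled, the makeup of the receptor pool was compared as each gene's share of the summed FPKM of Notch1 to Notch4. Notch2 took the largest mean share in both groups, 37.1% ± 13.8 (SD, n = 5) in the cancers and 40.8% ± 2.22 (SD, n = 3) in the controls. Notch1 took 28.5% ± 7.18 and 32.0% ± 3.32, and Notch3 took 19.6% ± 8.45 and 15.2% ± 7.96. The groups overlapped for each of the 4 receptors, with differences of -3.76 to 4.38 percentage points and two-sided exact permutation p of 0.482 to 0.732 over the 56 ways to divide 8 samples into 5 and 3. The smallest p that this design allows is 0.0179. Single libraries moved these differences, that of Notch2 to -9.49 points without cancer 5 (two-sided exact permutation p = 0.0857) and that of Notch3 to 8.56 without control 3, and no receptor share passed the threshold in any of these.

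Of the ligands, Dll4 rose, Jag1 fell, Dll1 did not pass the threshold and Dll3 was listed at 0. Dll4 (chromosome 2, 119321199 to 119335666 in the mm10 annotation of the table), known as the Delta ligand of sprouting endothelium, was at 6, 4, 8, 5 and 5 FPKM in the cancers and at 1 in each control. This interval overlaps the gene Gm14207, listed at 0 to 1 FPKM. The lowest cancer was thus 3 FPKM above all controls. Its mean of 5.6 ± 1.52 FPKM (SD, n = 5) was 5.6-fold that of the controls, and the log2 fold change of 1.69 ± 0.20 (SE) was called in limma (adjusted p = 0.0016), as it was on the TPM scale (2.59, adjusted p = 0.00089) and in every fit that left out a sample. Rounding against the difference would leave a log2 fold change of 1.25.

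Jag1 (chromosome 2, 137081451 to 137116520), a Jagged ligand found in many epithelia and in vessel walls, went the other way, at 2, 4, 3, 7 and 3 FPKM in the cancers and at 12, 9 and 8 in the controls. Cancer 4 came within 1 FPKM of control 3, and the other cancers held at most 4 FPKM. The mean was 3.8 ± 1.92 FPKM (SD, n = 5) against 9.67 ± 2.08 (SD, n = 3), a log2 fold change of -1.22 ± 0.31 (SE; limma, adjusted p = 0.022). The call was lost on the TPM scale (-0.42, adjusted p = 0.24) and without cancer 3 (adjusted p = 0.053). It was also lost without control 1, 2 or 3 (adjusted p = 0.088, 0.064 and 0.051), while the sign held in each of these fits. With quantile normalization the call held (log2 fold change -1.24, limma, adjusted p = 0.037). Cancer 4 also held the most squamous marker FPKM of the cancers (1710, against 0 to 505 in the others). Cancer 2, however, held only 17 with more Jag1 than cancers 3 and 5, which held 326 and 505. Gastric glandular marker sums were largest in cancers 2 and 4. The part of remaining squamous or glandular tissue in the Jag1 values was not tested.

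Dll1, a Delta ligand of progenitor and endocrine lineages, was at 2, 2, 4, 2 and 2 FPKM in the cancers and at 2, 1 and 1 in the controls. Cancer 3 was the highest sample, and the other cancers equalled control 1. The log2 fold change of 0.54 ± 0.24 (SE) did not pass the threshold (limma, adjusted p = 0.11). It did on the TPM scale (1.30, adjusted p = 0.013), but rounding against the difference could reduce it to 0.0078 on the FPKM scale.

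Dll3 (chromosome 7, 28293555 to 28301785), a Delta protein that does not activate Notch on neighbouring cells and is known from neuroendocrine tumors, was listed at 0 in all 5 cancers and all 3 controls. All 8 neuroendocrine markers were called higher in the same cancers, beside 16.2% of all genes. Depth is unknown here, and no limit of detection can be given. Jag2, the ligand outside the members, was at 7, 6, 3, 6 and 5 FPKM in the cancers and at 4, 6 and 6 in the controls, with a log2 fold change of -0.01 ± 0.25 (SE; limma, adjusted p = 0.99).

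Within the summed FPKM of the 5 ligands Dll1, Dll3, Dll4, Jag1 and Jag2, Dll4 took 25.0% to 44.4% in the cancers and 5.26% to 6.25% in the controls. Jag1 took 11.8% to 35.0% in the cancers and 50.0% to 63.2% in the controls. Neither pair of ranges overlapped, and these shares do not depend on the scaling of the libraries. The mean share of Dll4 was 32.6% ± 8.12 (SD, n = 5) against 5.80% ± 0.50 (SD, n = 3), a difference of 26.8 percentage points (two-sided exact permutation p = 0.0179). Jag1 differed by -33.7 percentage points, from 55.4% ± 6.91 in the controls to 21.7% ± 8.87 in the cancers (two-sided exact permutation p = 0.0179, the smallest possible). Rounding bounds were taken with Dll3 kept at its listed 0. With the least favourable rounding of the other ligands, the Dll4 share would be at least 20.6% in each cancer and at most 10% in each control. The Jag1 share would be at most 39.5% in each cancer and at least 44.1% in each control. Jag2 kept a similar mean share, 31.7% ± 9.42 and 31.3% ± 8.93, and Dll1 took 14% ± 4.78 and 7.55% ± 2.58 with overlapping ranges (two-sided exact permutation p = 0.0714). In all, 8 shares of receptors and ligands were compared. After Benjamini-Hochberg adjustment over the 8 comparisons, Dll4 and Jag1 each had p = 0.0714, which misses 0.05 and is the least that a pair of results at the smallest exact p can reach here, and Dll1 had p = 0.190.

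**Figure D2:**
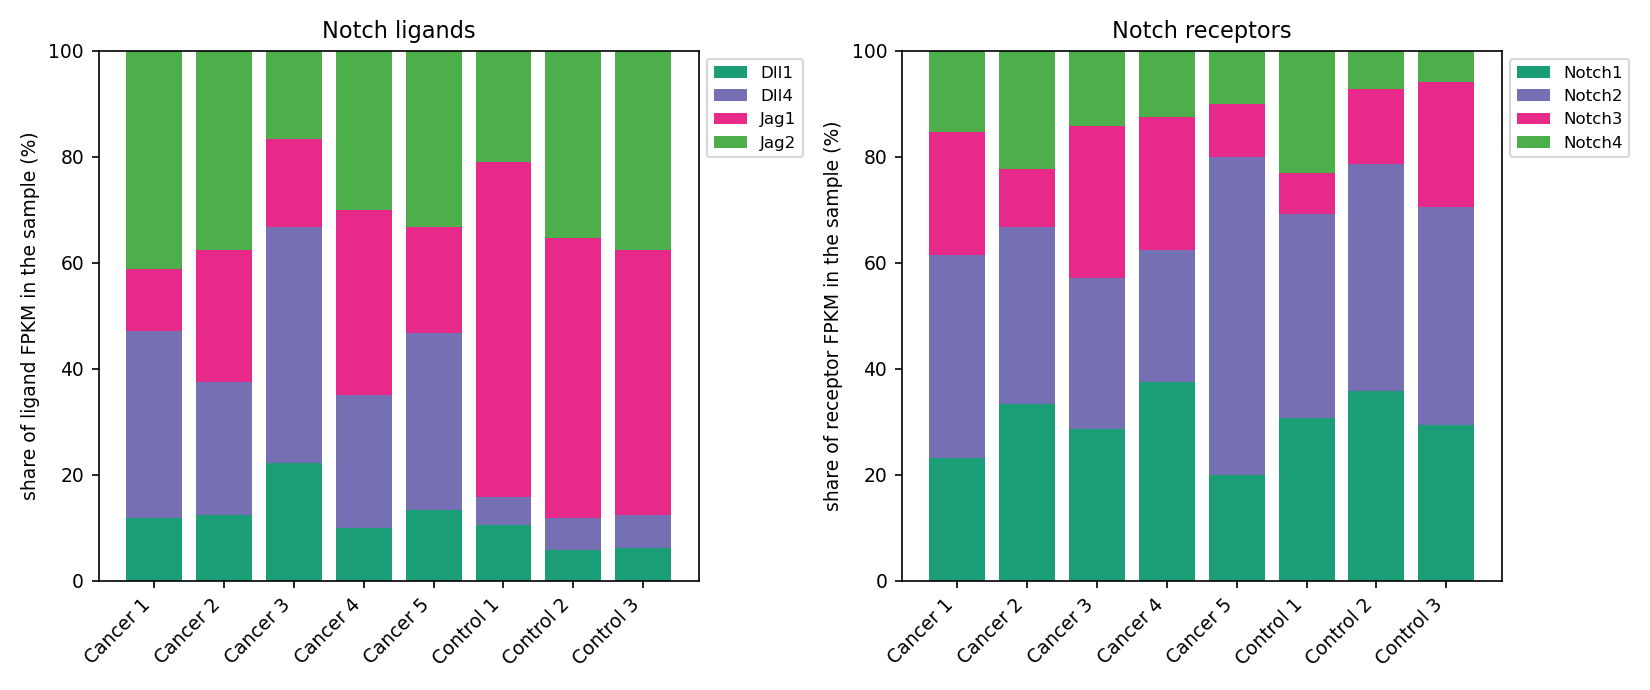
Share (percent) of the summed FPKM of the Notch ligands (left) and receptors (right) that each gene took in each of the 8 samples, drawn as stacked bars without error bars since each bar is 1 sample. Dll4 takes at least 25.0% of ligand FPKM in every cancer and at most 6.25% in any control, Jag1 takes 50.0% or more only in the controls, and the receptor shares overlap between groups.

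Hes1 and Hes6 held the highest levels of the family in both groups. Hes1 (chromosome 16, 30065357 to 30067796), the main repressor downstream of Notch in gut epithelium, was at 13, 42, 36, 55 and 26 FPKM in the cancers and at 58, 55 and 70 in the controls. Cancer 4 met control 2 at 55 and the other cancers lay below all controls. The mean was 34.4 ± 15.9 FPKM (SD, n = 5) against 61.0 ± 7.94 (SD, n = 3), and the log2 fold change of -0.95 ± 0.42 (SE) did not pass the threshold (limma, adjusted p = 0.11). On the TPM scale it was 0.0052 (adjusted p = 0.99), below the median of 0.81 over all genes. Gastric glandular markers summed to 692, 71685, 5578, 53307 and 15473 FPKM in cancers 1 to 5. Hes1 was lowest where this sum was lowest, in cancer 1, and cancers 2 and 4 were highest in both, but cancer 3 had more Hes1 than cancer 5 with a smaller sum, and cancer 4 more than cancer 2. The part of remaining glands in the Hes1 values was not tested.

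Hes6 (chromosome 1, 91411483 to 91413222), a relative of Hes1 known for opposing Hes1 and for its expression in differentiating neurons and endocrine cells, was at 49, 36, 56, 82 and 82 FPKM in the cancers and at 23, 22 and 34 in the controls. Cancer 2 was the lowest of its group and lay 2 FPKM above control 3. The mean of 61.0 ± 20.5 FPKM (SD, n = 5) was 2.32-fold the 26.3 ± 6.66 (SD, n = 3) of the controls, with a log2 fold change of 1.14 ± 0.30 (SE; limma, adjusted p = 0.025). The rise was larger on the TPM scale (2.11, adjusted p = 0.0018). On the FPKM scale the call was lost without cancer 3, control 1 or control 2 (adjusted p = 0.053, 0.091 and 0.091).

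Hey1 (chromosome 3, 8663359 to 8667038), a Notch target known from endothelium and its precursors, was at 11, 4, 9, 3 and 3 FPKM in the cancers and at 0, 0 and 1 in the controls. The groups were separated by 2 FPKM, with cancers 1 and 3 well above the other cancers. The log2 fold change was 2.31 ± 0.46 (SE; limma, adjusted p = 0.0094), called in every fit that left out a sample and on the TPM scale (3.24, adjusted p = 0.0027). With rounding against the difference it would be 1.68. With controls at or near 0 its size is set by the pseudocount, being 4.56 with 0.1 and 6.79 with 0.01 in place of 1, so it is no measure of a fold.

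Hes6 and Hes1 exchanged places. In the controls Hes1 was the highest member, above Hes6 without overlap, and in the cancers Hes6 had the highest mean, with overlapping ranges. The ratio of Hes6 to Hes1 FPKM within a sample, which is free of scaling, was 3.77, 0.857, 1.56, 1.49 and 3.15 in cancers 1 to 5 and 0.397, 0.40 and 0.486 in controls 1 to 3. Only cancer 2 among the cancers held less Hes6 than Hes1, and all 5 cancers were above all 3 controls. This ratio was chosen after the levels were seen and is a description. Below these Hes genes, the order of mean FPKM in the cancers was Hey1, Dll4, Jag1, Notch2, Notch1, Dll1 and Notch3, and each of these overlapped with the next. In the controls it was Jag1, Notch2, Notch1, Notch3, Dll1, Dll4 and Hey1, in which Jag1 lay above Notch2 without overlap and each of the others overlapped with the next. Dll4 and Hey1 thus moved from the foot of the order to just below the Hes genes.

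**Figure D3:**
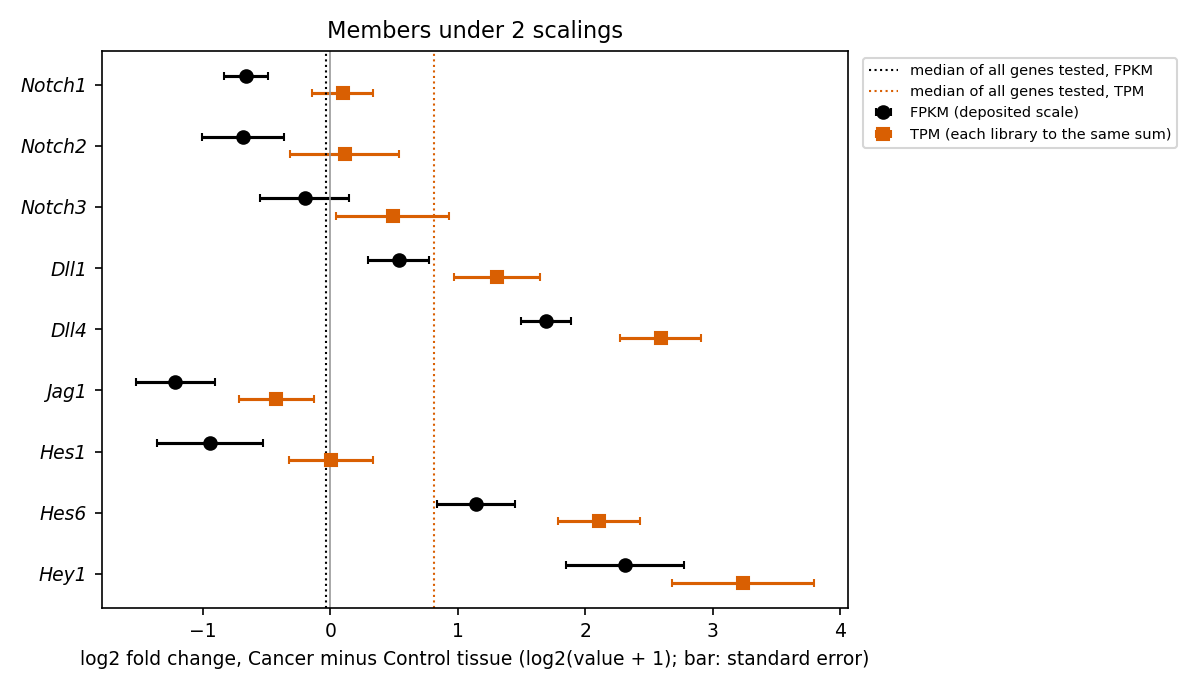
Log2 fold change of the 9 members tested, Cancer minus Control tissue, with its standard error, on the deposited FPKM scale (black circles) and with all libraries brought to an equal sum (TPM, orange squares), with dotted lines at the median of all genes tested, -0.04 and 0.81. Dll1, Dll4, Hes6 and Hey1 lie above the median and Notch1, Notch2, Notch3, Jag1 and Hes1 below it on both scales, while the sign of Notch1, Notch2, Notch3 and Hes1 differs between the scales.

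Since Dll4, Hey1, Notch1 and Notch3 are known in vessels, vessel markers were set beside them. The 10 endothelial markers summed to 107, 69, 85, 70 and 31 FPKM in cancers 1 to 5 and to 19, 26 and 25 in the controls, and 5 of the 10 were called higher and 0 lower, beside 16.2% and 18.3% of all genes, led by Eng (log2 fold change 1.78, adjusted p = 0.031), a receptor of the TGF-beta family, and Esam (1.61, adjusted p = 0.0077), an adhesion molecule. On the TPM scale 9 of the 10 were higher, beside 50.0% of all genes. All 10 were above 0 in at least some samples, and the sum of every cancer exceeded that of every control. The call of Eng was lost in 7 of the 8 fits that left out a sample (all but that without cancer 5), and that of Esam in 0 of them. Relative to the mean log2(FPKM + 1) of these markers, Dll4 was higher in the cancers by 0.57 on the log2 scale, which was not distinguishable from the spread between samples (two-sided exact permutation p = 0.125), and by 0.36 without cancer 5 (two-sided exact permutation p = 0.143). Cancer 5 was the exception within its group, with 5 FPKM of Dll4 at the lowest endothelial sum, 31. Notch1 relative to the same markers was lower by 1.79 on the log2 scale, from 0.94 ± 0.08 (SD, n = 3) in the controls to -0.84 ± 0.49 (SD, n = 5) in the cancers, without overlap (two-sided exact permutation p = 0.0179). Hey1 was highest in cancers 1 and 3, which also held the largest endothelial sums. It was at 3 FPKM in both cancer 4 and cancer 5, however, whose sums were 70 and 31.

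The 6 pericyte markers summed to between 24 and 71 FPKM in the cancers and between 13 and 21 in the controls. Of them, 2 were called higher and 0 lower, Pdgfrb (log2 fold change 1.65, adjusted p = 0.016), the PDGF receptor of mural cells, and Kcnj8 (1.60, adjusted p = 0.037), a potassium channel subunit. These counts stand beside 16.2% and 18.3% of all genes, and on the TPM scale 4 of the 6 were higher, beside 50.0% of all genes. Their calls were lost in 3 and 6 of the 8 fits that left out a sample, each time including those without a control. Notch3 relative to these markers was lower in the cancers by 1.26 on the log2 scale (two-sided exact permutation p = 0.0179), and by 0.86 without control 3, where the difference no longer passed (two-sided exact permutation p = 0.0952). Relative to 6 smooth muscle markers, which ranged in sum from 45 to 1335 FPKM in the cancers and from 315 to 441 in the controls with 0 called, the difference of Notch3 was 0.58 (two-sided exact permutation p = 0.679). Over the 4 comparisons with markers, the Benjamini-Hochberg adjusted p was 0.0357 for Notch1 and for Notch3 against pericyte markers. For Notch3 against pericyte markers the highest cancer was at -0.88 and the lowest control at -0.53 on the log2 scale. No rounding bound was computed for the marker comparisons, and at Notch3 levels of 1 to 4 FPKM rounding could close this gap. How far vessel content sets the levels of Dll4, Hey1, Notch1 and Notch3 was not tested.

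**Figure D4:**
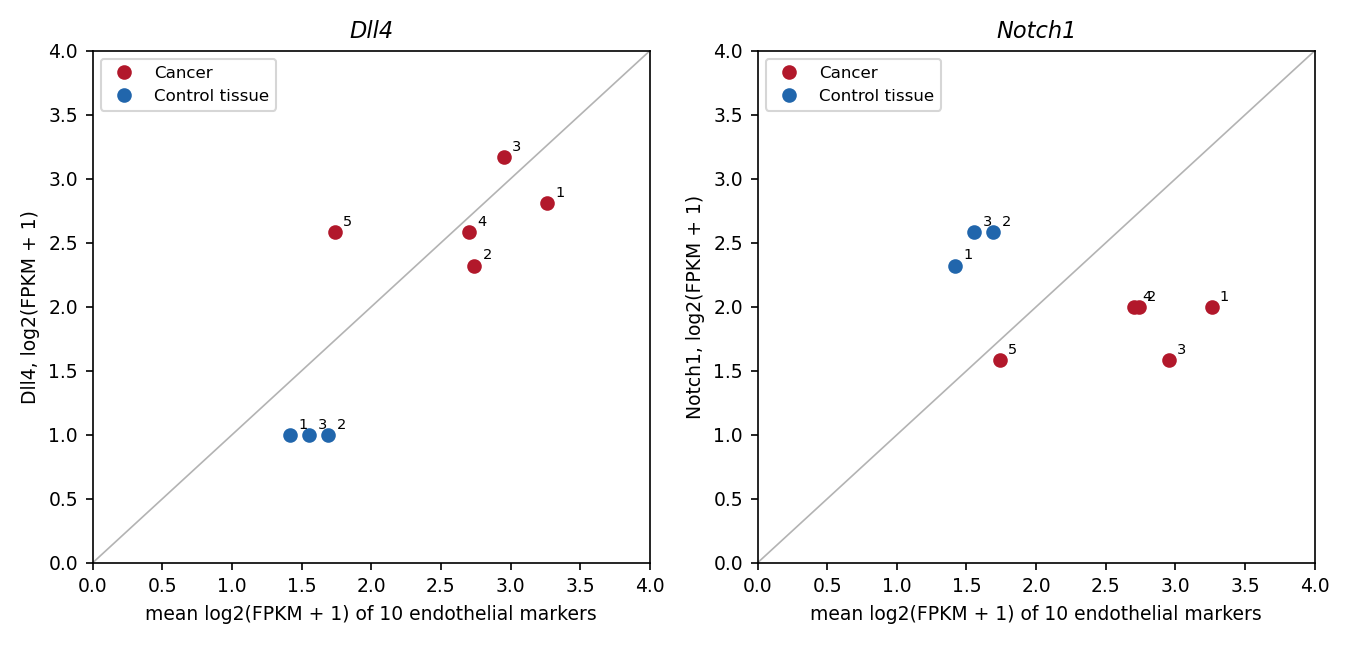
Dll4 (left) and Notch1 (right), log2(FPKM + 1), against the mean log2(FPKM + 1) of 10 endothelial markers in each sample, with Cancer in red, Control tissue in blue, replicate numbers beside the points and a grey line where both are equal. Dll4 is higher in every cancer than in the controls and Notch1 lower on this FPKM scale, and cancer 5 has the lowest endothelial level of the cancers.

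The other genes of the pathway were taken as 7 lists with 54 genes, of which 45 were tested. In limma 9 were called higher and 11 lower, together 44.4% beside 34.5% of all genes, with a median log2 fold change of -0.12. In the FPKM fit 16.2% of all genes were called higher and 18.3% lower, the shares against which the counts of each list below can be read. On the TPM scale 20 of the 45 were higher and 1 lower, where 50.0% of all genes were higher and 3.68% lower, so that these counts lay near the share over all genes.

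Among the enzymes that cut the receptor, 0 of 10 tested rose and 4 fell on the FPKM scale, with a median log2 fold change of -0.48, while 2 rose and 1 fell on the TPM scale. Furin, the convertase that cleaves new Notch protein and many other secreted proteins, was at 19, 37, 21, 35 and 39 FPKM in the cancers and at 238, 555 and 541 in the controls. Every cancer was far below every control, and the log2 fold change was -3.80 ± 0.37 (SE; limma, adjusted p = 0.0011), or -2.85 on the TPM scale (adjusted p = 0.00076). Aph1a, a subunit of gamma-secretase, was at 27 to 43 FPKM against 53 to 74 (log2 fold change -1.02, adjusted p = 0.0078), but at -0.06 on the TPM scale (adjusted p = 0.77).

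Of the 5 enzymes that add sugars to Notch and its ligands, 3 rose and 0 fell, beside 16.2% and 18.3% of all genes, with a median log2 fold change of 0.87. Lfng, lunatic fringe, which tunes receptors toward Delta ligands, was at 14, 7, 15, 5 and 10 FPKM in the cancers and at 1, 2 and 3 in the controls. The groups did not overlap, and the log2 fold change was 1.86 ± 0.38 (SE; limma, adjusted p = 0.010). Mfng, manic fringe, was at 6, 3, 2, 2 and 3 against 0, 1 and 1 FPKM (1.33 ± 0.35 SE, adjusted p = 0.025), a call lost without any of the 3 controls (adjusted p up to 0.091). The third gene called was Poglut1, an O-glucosyltransferase of Notch, at 9 to 14 against 5 to 7 FPKM (0.87 ± 0.17 SE, adjusted p = 0.0091). Rfng, radical fringe, did not pass the threshold, at 8 to 13 against 12 to 16 FPKM. On the TPM scale, where 50.0% of all genes were called higher, all 5 were, Rfng included.

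Regulators of trafficking and ubiquitin went both ways, with 3 of 11 higher and 3 lower and a median log2 fold change of 0.07 on the FPKM scale, and 6 higher and 0 lower on the TPM scale. Neurl1a, a ubiquitin ligase acting on ligands, was at 7, 5, 11, 6 and 23 FPKM in the cancers and at 1 in each control (log2 fold change 2.31 ± 0.43 SE, limma, adjusted p = 0.0074). Dtx3, a Deltex family member, was at 11 to 27 against 2 to 5 FPKM (2.03 ± 0.32 SE, adjusted p = 0.0041). In the other direction, its relative Dtx4 was at 2, 6, 3, 6 and 6 FPKM in the tumors and at 13, 12 and 10 in control tissue (-1.25 ± 0.33 SE, adjusted p = 0.023), a call lost without cancer 3 or any control. Numb, an inhibitor of Notch handed on unequally at cell division, was at 6 to 9 against 13 to 16 FPKM (-0.91 ± 0.15 SE, adjusted p = 0.0050). On the TPM scale the log2 fold changes of Dtx4 and Numb were -0.44 and -0.02 and neither was called.

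Of the nuclear cofactors and corepressors, 2 of 12 were higher and 3 lower on the FPKM scale, with a median log2 fold change of -0.23, and 4 were higher and 0 lower on the TPM scale. Rbpj, the DNA-binding protein on which the pathway converges, was at 7, 5, 7, 4 and 8 FPKM in the cancers and at 8 in each control. Only cancer 5 reached the controls, and the log2 fold change of -0.35 ± 0.21 (SE) did not pass the threshold (limma, adjusted p = 0.21). Within the Groucho corepressors that Hes proteins recruit, Tle1 was at 25, 12, 24, 9 and 18 against 4, 5 and 5 FPKM (log2 fold change 1.63 ± 0.33 SE, adjusted p = 0.010), while Tle3 was at 6, 12, 7, 12 and 12 against 22, 24 and 33 (-1.37 ± 0.27 SE, adjusted p = 0.0092). Neither pair of groups overlapped, although Tle3 was not called on the TPM scale (-0.47, adjusted p = 0.12). Maml2, a Mastermind coactivator, was at 2 to 4 against 1 FPKM (0.96, adjusted p = 0.015) and Tle4 at 2 to 4 against 4 to 5 (-0.76, adjusted p = 0.028), the latter at -0.02 on the TPM scale (adjusted p = 0.96). Without any of the 3 controls, and for Tle4 also without cancer 1 or 3, these calls were lost.

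Among the other Hes and Hey genes and Nrarp, 0 of the 3 tested rose and 1 fell on the FPKM scale, and 1 rose and 0 fell on the TPM scale. Nrarp, a feedback inhibitor induced by Notch, was at 4, 5, 7, 14 and 7 FPKM in the cancers and at 15, 21 and 21 in the controls. As for Jag1 and Hes1, cancer 4 lay closest to the controls, and the log2 fold change was -1.34 ± 0.34 (SE; limma, adjusted p = 0.022), or -0.47 on the TPM scale (adjusted p = 0.25). The call was lost without any of the 3 controls, with an adjusted p of up to 0.078. Hes5, a target of Notch in neural progenitors, was listed at 0 in all samples, as were Hes3 and Hes7. Heyl was at 2, 1, 2, 1 and 0 FPKM in the cancers and at 0 in the controls, and was called higher on the TPM scale (adjusted p = 0.040) but not on the FPKM scale (adjusted p = 0.056).

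Of the proneural genes, basic helix-loop-helix factors that start neural and endocrine differentiation and that Hes proteins can repress, only Neurod1 entered the test among the 5 examined. It was at 53, 25, 90, 34 and 57 FPKM in cancers 1 to 5 and was listed at 0 in every control. The fitted log2 difference was 5.59 ± 0.38 (SE; limma, adjusted p = 0.00036), which against controls at 0 is no measure of a fold. Neurog3, the initiator of gut endocrine differentiation, was listed at 1 FPKM in cancer 2 and at 0 elsewhere, and Neurog1, Neurog2 and Atoh1 were listed at 0 in all 8 samples.

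**Figure D5:**
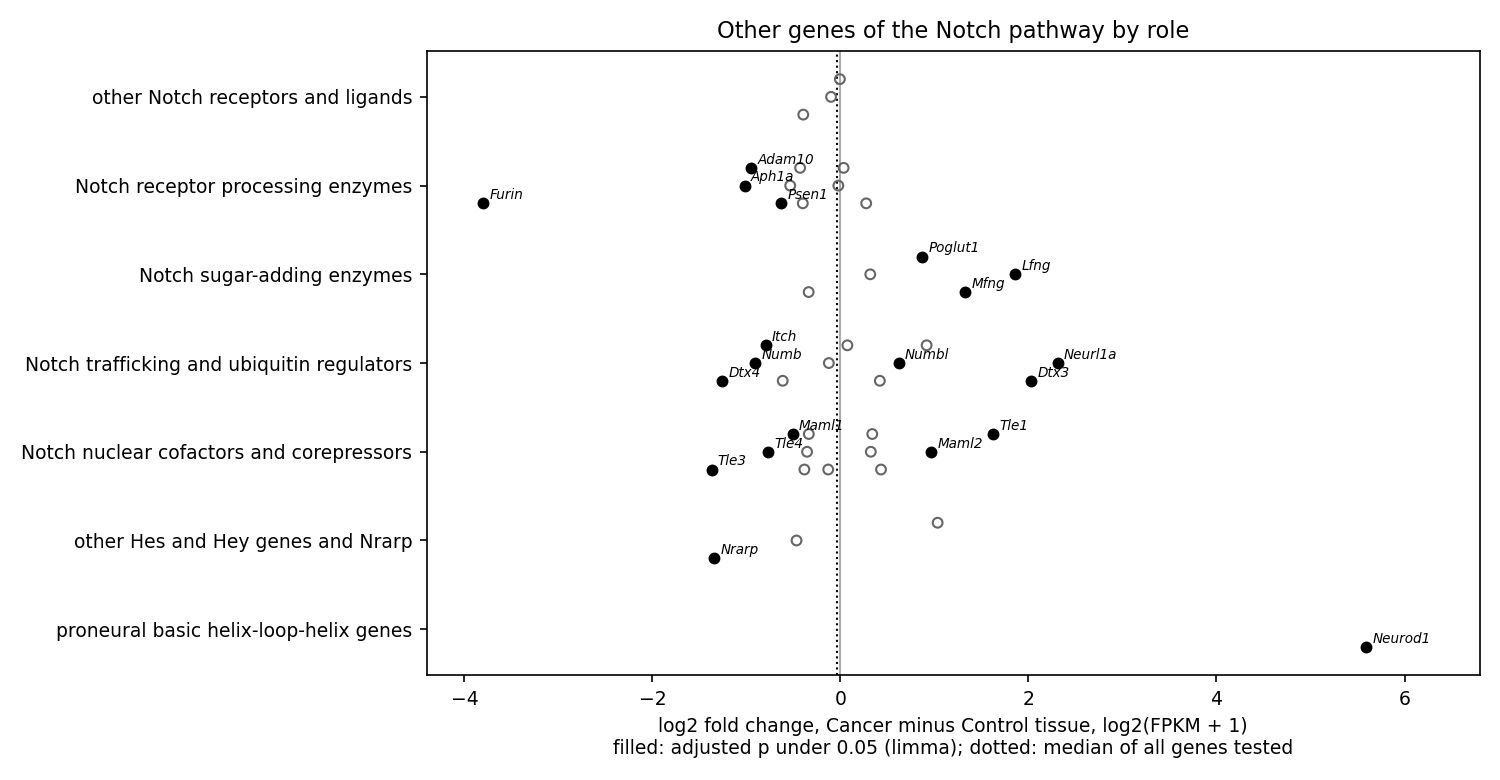
Log2 fold change, Cancer minus Control tissue on the log2(FPKM + 1) scale, of the 45 tested genes in 7 lists of other Notch pathway genes, with filled, named points for those past an adjusted p of 0.05 in limma, open points for the others and a dotted line at the median of all genes, -0.04. Furin lies farthest to the left at -3.80, Neurod1 farthest to the right at 5.59, and the other called genes fall between -1.37 and 2.31 in either direction.

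The genes whose profile over the 8 samples was most like that of the most raised and the most lowered member were taken by the smallest root mean square difference of centred log2(FPKM + 1). Nearest to Hey1 were Khdrbs3 (0.24), Wdr6 (0.29) and Foxc1 (0.30). Foxc1, a forkhead factor of mesenchyme and vessels, was at 17, 6, 15, 5 and 5 FPKM in the cancers and at 1 in each control, so that cancers 1 and 3 were again the highest. Khdrbs3, an RNA-binding protein, was at 101, 44, 78, 36 and 48 against 8, 10 and 13. Wdr6 was at 81, 33, 64, 26 and 40 against 6, 10 and 12, and both were likewise highest in cancers 1 and 3. Nearest to Jag1 were Atp5f1 (0.14), a subunit of mitochondrial ATP synthase, Rab11a (0.16), a GTPase of recycling endosomes, and Chac2 (0.16). Rab11a was at 34, 66, 49, 79 and 55 FPKM in the cancers and at 143, 116 and 123 in the controls, and shared with Jag1 the highest cancer value in cancer 4 and the lowest in cancer 1. These distances describe 8 samples and were not tested.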

How the data were processed

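The authors sequenced polyA+ directional libraries of 5 Cancer and 3 Control tissue samples, with 1 table column for each. They trimmed reads with cutadapt 1.8 and quantified UCSC mm10 genes with cuffquant and Cuffnorm 2.2.1, and the submitters' processing notes also name TopHat2 2.0.13. The deposited values are FPKM rounded to whole numbers (100% were whole) and were treated as a score, not as reads, so depth is unknown and only the number of samples and the rounding set the precision. Of 23361 genes, the 14357 that reached an FPKM of 1 in 3 or more samples entered limma 3.58.1 in R 4.3.3 (lmFit, eBayes with trend) as log2(FPKM + 1), and p-values adjusted by Benjamini-Hochberg were called under 0.05. Fold changes on this scale understate the change of low genes. Single values were compared by exact permutation (two-sided) over all 56 divisions of the samples into 5 and 3. The study's methods describe 3 control stomachs of age-matched mice and 5 dissected tumors, without saying whether each tumor came from its own mouse, so p-values measure the spread between these samples.

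The members and the 16 lists of 119 genes, all matched, were chosen with earlier results of these data known. A gene of the lists is not reported here and was left out of their counts. All members were named, and from each pathway, endothelial and pericyte list up to 2 called genes in each direction with the largest change, with Rbpj, Notch4, Jag2, Hes5 and Neurog3 in any case. Of the marker lists kept for tissue content only sums and counts of calls are given. Poglut1, Rfng, Heyl and Pgc, genes at 0 throughout and the other names in the pathway plot were added after their values were seen. The alternatives were TPM, quantile normalization, pseudocounts of 0.1 and 0.01, other filters (genes above 0 in any sample, and a mean FPKM of at least 5), array weights, eBayes with no trend, the replicate number as a block, and leaving out each sample in turn. Moving every value by its largest possible rounding error of 0.5 was chosen after seeing the data. Promoter windows came from RefSeq (GRCm38.p6). The limma fit was also run on simulated data, in which only well expressed genes of small spread were changed, by a large step. That run does not cover the low levels of most members.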

Additional observations from a re-analysis of the deposited data

Results flagged for a closer look

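Of 21 member results examined within the 5 cancers, 3 had a highest or lowest sample set far from the others by Dixon's ratio of the gap to the range, where chance alone gives about 1 in 20. The level of Dll1 stood out, with a ratio of 1, because cancer 3 was at 4 FPKM and the other cancers at 2, a gap of a few rounding steps. With the other cancers tied the ratio is 1 whatever the gap, so the chance rate does not hold for it. The share of Dll1 in ligand FPKM had a ratio of 0.727, with cancer 3 at 22.2% and the other cancers at 10% to 13.3%. This share draws on the same Dll1 value of cancer 3. Notch3 relative to pericyte markers had a ratio of 0.718, with cancer 2 lowest at -1.97 on the log2 scale.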

How the results depend on the processing

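The genes called over the whole table numbered 4948, and 7704 with TPM, 8148 with array weights, 1534 with the replicate block and 2490 to 5252 with a sample left out. The split into higher and lower genes, 2326 and 2622, became 7176 and 528 with TPM. Of the members, 5 were called, 2 with a mean FPKM of at least 5 (where Jag1, Hes1 and Hes6 alone could be tested), 8 with array weights, 2 with the replicate block and 2 to 5 with a sample left out. The fewest, 2, came without control 2, and 3 were left without cancer 3, control 1 or control 3. The other pathway genes called numbered 20, 5 with the replicate block and 11 to 21 with a sample left out, with 11 without each control. Direction turned with TPM for Notch1 (0.097), Notch2 (0.11), Notch3 (0.49) and Hes1 (0.0052), and for Notch3 with a sample left out (-0.52 to 0.14); the cause was not tested beyond the scaling itself. Counting members only, the Dll1 share differed by 9.38 percentage points (two-sided exact permutation p = 0.0179). With a sample left out, the difference ranged from -0.23 to 8.37 points for the Notch4 share, from -5.72 to -1.34 for Notch1, from -9.49 to -0.74 for Notch2, from 0.64 to 8.56 for Notch3, from -4.66 to 4.22 for the Jag2 share, from 0.36 to 0.69 on the log2 scale for Dll4 against endothelial markers (0.85 with a pseudocount of 0.1, two-sided exact permutation p = 0.0714), from -1.55 to -0.86 for Notch3 against pericyte markers and from -0.14 to 1.33 against smooth muscle markers. Of 147 member fold changes recomputed with a test, 125 kept direction and side of the threshold, 14 lost the call, 4 gained it and 5 turned sign, 1 of them also among the lost (Notch1 with TPM). Of 18 with the largest rounding error, 1 turned sign (Notch3, 0.33). The replicate numbers pair no samples (correlations of deviations -0.02, -0.19 and -0.10), so the block result, which kept 2 of the 5 member calls, says nothing about the size of an effect. Whole-number FPKM limits every member at or under 5 FPKM.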
